A study of Mus musculus with 8 samples.

Results

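The 10 genes followed here were listed as identity genes of conventional dendritic cells (cDCs), a label that does not make each one specific to cDCs. They were measured by RNA-seq in bone marrow-derived dendritic cells (BMDCs): *Zbtb46*, *Batf3*, *Id2*, *Spi1*, *Bcl6*, *Flt3*, *Itgax*, *Cd209a*, *Dpp4* and *Kmo*. The 10 genes were taken by name from a table of 23356 genes, 9 under these symbols and *Spi1* under its older symbol *Sfpi1*. BMDCs were grown from bone marrow of WT mice or of mice lacking GEF-H1 (GEF-H1-/-), a guanine nucleotide exchange factor for RhoA that is bound to microtubules and encoded by *Arhgef2*, all on a C57BL/6 background by the labels (C57BL/6N in the study's methods) and all cultured with GM-CSF and IL-4. The cells were left untreated (control) or were exposed to 100 nM ansamitocin-P3, a maytansine-type drug that destabilizes microtubules, for 5 h. This gave 4 groups of 2 libraries, 8 in all: control WT, treated WT, control GEF-H1-/- and treated GEF-H1-/- DCs. The labels and methods do not say whether the 2 libraries of a group came from separate mice, and the floating and loosely attached cells of the cultures were taken without a sort for cDCs.

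cDCs are the dendritic cells that arise from a committed bone marrow precursor and prime T cells. Flt3, the receptor for Flt3 ligand, carries the precursor through this pathway, PU.1 (*Spi1*) acts early in it, and *Id2*, *Batf3* and *Bcl6* act later, with *Batf3* needed above all for the cDC1 branch. *Zbtb46* encodes a zinc finger factor that separates cDCs from monocytes, macrophages and plasmacytoid DCs. Cultures with GM-CSF and IL-4 also produce monocyte-derived cells that share some of these genes.

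Expression is given as FPKM, fragments scaled to transcript length and library size, so levels can be set side by side between genes. The table holds 1 pooled FPKM per gene and group with a 95% interval from Cuffdiff, which is given in brackets after each value. Where 4 values follow each other, they stand for WT control, WT treated, GEF-H1-/- control and GEF-H1-/- treated cells. There is no value per library, hence no SD, no n and no test of any difference. A pair of groups is called apart where their intervals do not overlap. Changes are log2 ratios of FPKM + 1, which understate the change of genes near or under 1 FPKM, and the limit for a large change was 1 or -1. Both counts are read against the 11397 genes that reached 1 FPKM in 1 group or more. All 10 identity genes passed this filter, 9 of them in every group. The intervals of the 10 genes spanned 40.4 to 81.3% of the FPKM, with a median of 44.7%. Positions are those of the table, on mm10. *Arhgef2* (chromosome 3, 88616207 to 88648052) was at 42.3 FPKM (34.5 to 50.0) in WT controls and 45.9 (36.9 to 54.9) in treated WT cells. It was at 4.59 (3.54 to 5.63) in GEF-H1-/- controls and 4.16 (3.22 to 5.11) after treatment. FPKM summed over all genes with a Cuffdiff status of OK was 594706 to 612810 in 3 groups and 734144 in treated WT DCs, so the groups do not share a total. In whole cultures, fewer cells of a type and less RNA per cell cannot be told apart.

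In control WT DCs, the 10 genes fell into tiers of abundance. *Spi1* and *Id2* were the highest, at 279 and 222 FPKM, above 97.5 and 96.9% of the 11397 genes, and their intervals overlapped. *Batf3* and *Itgax* followed at 106 and 102 FPKM and could not be told apart. *Kmo* at 40.2 FPKM and *Zbtb46* at 14.8 FPKM each stood apart from their neighbours. *Dpp4* at 6.95 and *Bcl6* at 4.71 FPKM overlapped, as did *Flt3* at 2.10 and *Cd209a* at 1.81 FPKM, which lay above only 11.8 and 9.94% of genes. The order differed between groups in one place where intervals were apart on both sides: *Kmo* was above *Zbtb46* in both control groups and below it in treated WT DCs, at 9.60 against 22.1 FPKM. In treated GEF-H1-/- DCs the pair overlapped, at 12.8 and 13.2 FPKM.

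**Figure D1:**
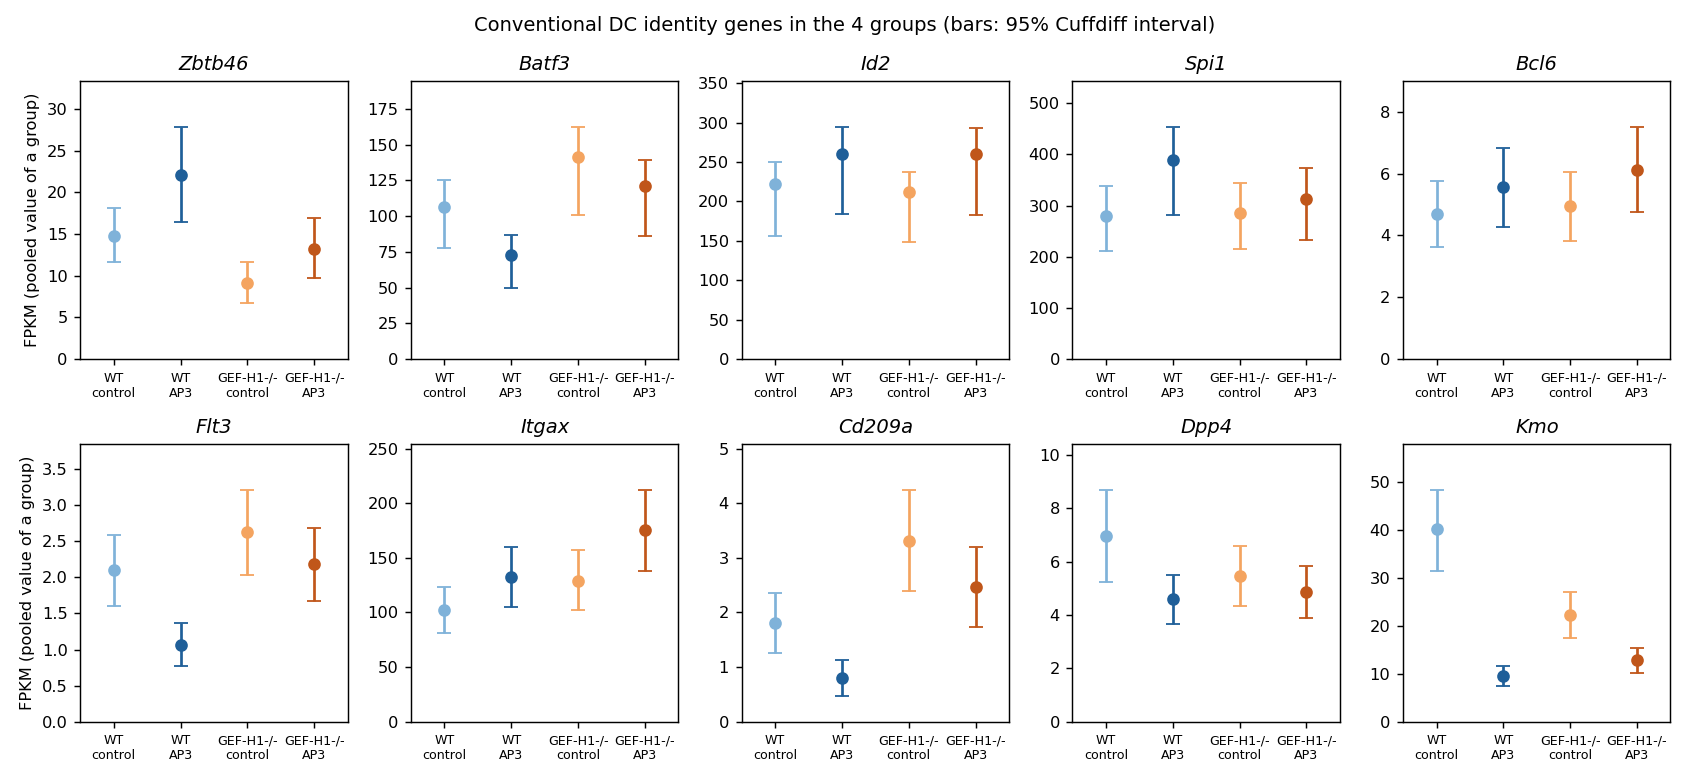
Pooled FPKM of the 10 identity genes (linear axes from 0, a separate scale per gene) in control and ansamitocin-P3 (AP3) treated WT and GEF-H1-/- DCs, with bars for the 95% Cuffdiff interval. *Kmo* is lower in the treated group of both genotypes with intervals apart, and *Flt3* and *Cd209a* only in WT.

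The first comparison asked how microtubule destabilization moved these genes in WT DCs. The list split evenly around no change: *Zbtb46*, *Spi1*, *Itgax*, *Id2* and *Bcl6* were above their control level, and *Kmo*, *Cd209a*, *Flt3*, *Batf3* and *Dpp4* below it. There were 3 genes with intervals apart, *Kmo*, *Cd209a* and *Flt3*, all lower, where 7.58% of all genes were apart and lower. None was apart and higher, against 9.19% of all genes. *Kmo* was the 1 gene with a change under -1, against 1.28% of all genes, and none was over 1, against 3.66%. The median change of the 10 genes was -0.15, beside 0 over all genes, with a range from -1.96 to 0.54.

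In GEF-H1-/- DCs, *Kmo* was the 1 identity gene with intervals apart, again lower, against 0.956% of all genes. None was apart and higher, against 2.75%, and none was past a change of 1 in either direction, against 1.08%. As deposited, all 10 genes lay on the same side of no change as in WT DCs, against 8614 of the 11397 genes (75.6%). The change was larger in WT for 7 of the 10 genes (70%) and for 77.5% of all genes. The median change was -0.01, the same as over all genes. With groups rescaled to equal totals, *Id2* crossed to -0.02 and *Bcl6* went to 0.0 in WT.

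**Figure D2:**
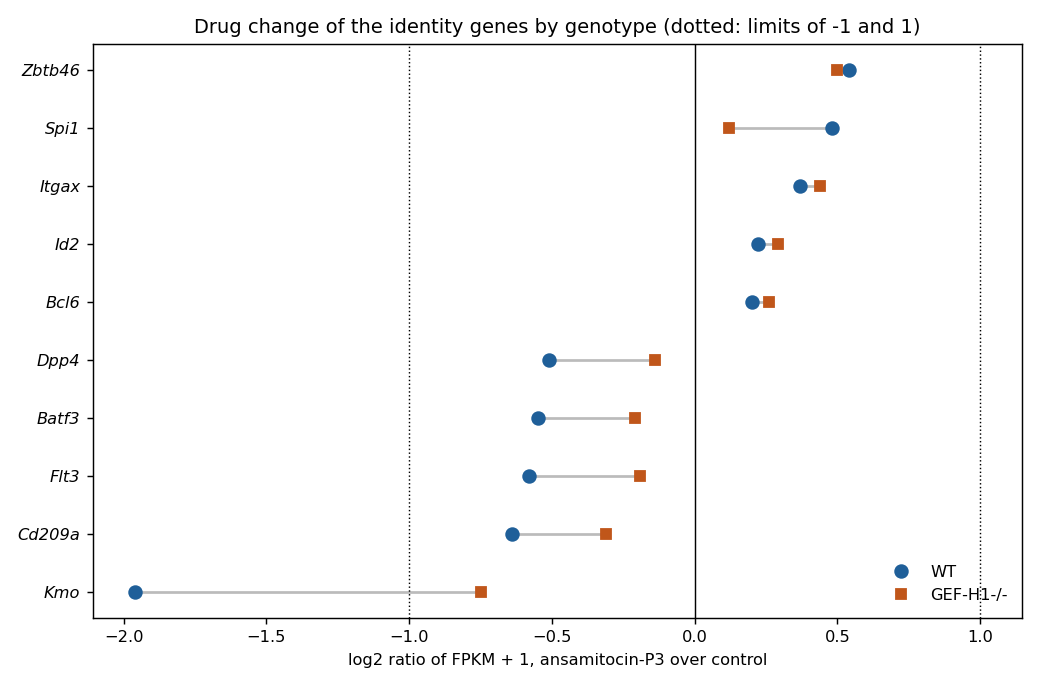
Log2 ratio of FPKM + 1, ansamitocin-P3 over control, for each identity gene in WT (circles) and GEF-H1-/- (squares) DCs, ordered by the WT change, with dotted lines at the limits of -1 and 1. *Kmo* in WT, at -1.96, is the only point past a limit, and each gene's pair of points lies on one side of 0 as deposited. With groups rescaled to equal totals, *Id2* in WT is at -0.02 and *Bcl6* in WT at 0.0.

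*Zbtb46* (chromosome 2, 181390886 to 181459426) was at 14.8 FPKM (11.6 to 18.1) in WT controls and 22.1 (16.5 to 27.8) in treated WT cells. In GEF-H1-/- DCs it was at 9.09 (6.74 to 11.7) and 13.2 (9.77 to 16.9). The treated level was 1.49 times the control level in WT (log2 change 0.54) and 1.46 times in GEF-H1-/- cells (0.50), with overlapping intervals in both genotypes. WT DCs held 1.63 times the level of GEF-H1-/- DCs among controls and 1.67 times among treated cells, and these intervals overlapped only at their ends, 11.6 against 11.7 FPKM in controls. A lower log2 value than that of *Zbtb46*, GEF-H1-/- against WT, was held by 1.73% of all genes among controls and 5.15% among treated cells.

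*Spi1* (chromosome 2, 91096797 to 91115756), the gene of PU.1, was at 279 FPKM (211 to 339) in WT controls and 389 (282 to 453) after treatment. GEF-H1-/- controls held 286 (215 to 345) and treated GEF-H1-/- cells 312 FPKM (233 to 373). All 4 intervals overlapped, and treatment gave a log2 change of 0.48 for WT and 0.12 for GEF-H1-/- cells. *Id2* (chromosome 12, 25093799 to 25096092), whose protein holds E proteins away from DNA, was at 222 (156 to 250), 260 (184 to 294), 212 (148 to 237) and 260 FPKM (183 to 293). Its level was nearly the same in the genotypes, with log2 values of -0.07 among controls and 0.00 among treated cells. The change of *Id2* in treated WT DCs, 0.22 as deposited, was -0.02 when the groups were rescaled to equal totals.

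*Batf3* (chromosome 1, 191098414 to 191108943), an AP-1 family factor of cDC1, was at 106 FPKM (77.3 to 125) in WT controls and 72.5 (50.0 to 86.8) after treatment. It was at 141 (101 to 162) and 121 (86.0 to 139) in GEF-H1-/- DCs. The intervals overlapped in all 4 comparisons, most narrowly between treated cells, where GEF-H1-/- DCs held 1.67 times the WT level with facing bounds of 86.0 and 86.8 FPKM. *Bcl6* (chromosome 16, 23965052 to 23988612), a transcriptional repressor, was at 4.71 (3.64 to 5.77), 5.56 (4.29 to 6.84), 4.97 (3.83 to 6.07) and 6.13 FPKM (4.76 to 7.50), and none of these was apart.

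*Flt3* (chromosome 5, 147330742 to 147400489) was at 2.10 FPKM (1.60 to 2.59) in WT controls and 1.07 (0.775 to 1.37) after treatment, 1.96-fold lower, with intervals apart. In GEF-H1-/- DCs it was at 2.63 (2.04 to 3.21) and 2.18 (1.67 to 2.69), which overlapped. Treated GEF-H1-/- DCs therefore held 2.05 times the level of treated WT DCs, again with intervals apart, while the controls overlapped. *Flt3* was a low gene in every group, and its log2 change in WT was -0.58 with 1 FPKM added, -0.91 with 0.1 added and -0.23 with 5 added.

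Among the surface proteins, *Itgax* (chromosome 7, 128129568 to 128150657), which encodes the CD11c integrin chain used to recognize DCs, was at 102 FPKM (81.0 to 123) in WT controls and 132 (105 to 160) after treatment. GEF-H1-/- controls held 129 (102 to 157) and treated GEF-H1-/- cells 175 FPKM (138 to 212). The treated level was 1.30 times the control level in WT and 1.36 times in GEF-H1-/- cells, with overlap in all 4 comparisons. *Dpp4* (chromosome 2, 62330073 to 62412231), the CD26 peptidase, was at 6.95 (5.23 to 8.68), 4.59 (3.66 to 5.51), 5.46 (4.33 to 6.58) and 4.87 FPKM (3.87 to 5.85), with overlap throughout.

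*Cd209a* (chromosome 8, 3743395 to 3748984), a C-type lectin related to human DC-SIGN, was at 1.81 FPKM (1.25 to 2.36) in WT controls and 0.808 (0.478 to 1.13) after treatment, 2.25-fold lower with intervals apart. In GEF-H1-/- DCs it was at 3.30 (2.39 to 4.24) and 2.47 (1.73 to 3.19), which overlapped. The GEF-H1-/- level was 1.82 times WT among controls and 3.05 times among treated cells, and both pairs were apart, the controls by facing bounds of 2.36 and 2.39 FPKM. Its log2 change in WT was -0.64 with 1 FPKM added, -1.08 with 0.1 added and -0.23 with 5 added. *Cd209a* lies among closely related paralogues whose reads can be split between copies, so its level is uncertain. *Cd209d* was at 0.142, 0.158, 0.767 and 1.04 FPKM and *Cd209e* at 0.443, 0.231, 1.24 and 1.03 FPKM, with intervals apart between the genotypes. Both passed the filter only through GEF-H1-/- groups, where they were highest. *Cd209c* was at 1.67, 1.40, 1.23 and 1.28 FPKM, with overlap. *Cd209b*, *Cd209f* and *Cd209g* were listed at 0 in every group. The *Cd209* genes were singled out here after their values were seen.

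*Kmo* (chromosome 1, 175632193 to 175660853) encodes kynurenine 3-monooxygenase, a mitochondrial enzyme of tryptophan breakdown. It was at 40.2 FPKM (31.4 to 48.4) in WT controls and 9.60 (7.55 to 11.7) after treatment. This was 4.19-fold lower, from 2.69 to 6.41-fold at the facing and outer bounds, and only 0.123% of all genes had a lower change. In GEF-H1-/- DCs *Kmo* was at 22.2 (17.4 to 27.0) and 12.8 (10.1 to 15.5), 1.73-fold lower, from 1.12 to 2.68-fold. The control level was 1.81 times higher in WT, with intervals apart, and the treated levels overlapped. The genotypes differed in the starting level of *Kmo* as well as in its change.

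Upstream sequence is shown for the 3 genes whose intervals were apart on treatment and for *Itgax*, the most abundant surface member, to give the letters before each start. The sequences are those of RefSeq on GRCm38.p6, and 9 of the 10 genes had a window of 250 bases before an annotated start. Motifs chosen with the results known were searched on both strands: GAGGAA, a core bound by PU.1, TGANTCA, an AP-1 site, and 2 copies of GAAA set apart by any 2 bases, an element of IRF factors. For *Kmo*, 30 bases around its only match are shown (chr1:175632078-175632107, plus strand), with GAGGAA in capitals. *Itgax* (chr7:128129300-128129549, plus strand) has TGAGTCA in capitals, 56 to 50 bases before the RefSeq start that ends its window. That start lies upstream of the start at 128129568 given above. *Flt3* (chr5:147400490-147400739, minus strand) and *Cd209a* (chr8:3748985-3749234, minus strand) hold none of the motifs in these windows.
Kmo: aaacacttatcaGAGGAAgtgagctttgac
Itgax: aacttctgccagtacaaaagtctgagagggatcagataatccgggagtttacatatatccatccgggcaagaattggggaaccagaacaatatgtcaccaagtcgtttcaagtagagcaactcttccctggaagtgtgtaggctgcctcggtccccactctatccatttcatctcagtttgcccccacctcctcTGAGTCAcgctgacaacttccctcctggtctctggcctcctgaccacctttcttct
Flt3: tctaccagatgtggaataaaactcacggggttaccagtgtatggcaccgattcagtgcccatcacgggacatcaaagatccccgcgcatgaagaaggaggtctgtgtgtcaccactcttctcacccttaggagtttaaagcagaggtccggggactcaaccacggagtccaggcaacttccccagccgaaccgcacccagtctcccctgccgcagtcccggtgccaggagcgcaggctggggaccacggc
Cd209a: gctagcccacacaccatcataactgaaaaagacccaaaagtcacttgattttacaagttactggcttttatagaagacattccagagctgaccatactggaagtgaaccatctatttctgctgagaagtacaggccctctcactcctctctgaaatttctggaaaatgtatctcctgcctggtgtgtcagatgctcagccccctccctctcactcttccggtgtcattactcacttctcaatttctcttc
GAGGAA was found in 4 of 10 windows of the identity genes (*Batf3*, *Bcl6*, *Dpp4* and *Kmo*) and in 23.3% of all 32851 windows. TGANTCA was found in 2 windows, against 6.75% of all, and the paired GAAA in 1, against 2.98%. *Bcl6* has 2 windows, and the window of *Zbtb46* precedes the start of a shorter transcript. A match describes letters and is not a bound site.

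The second comparison set the genotypes side by side. Among controls, 1 identity gene was apart and higher in GEF-H1-/- DCs (*Cd209a*), against 2.86% of all genes, and 1 was apart and lower (*Kmo*), against 1.88%. None was past a log2 value of 1 in either direction, against 1.88% of all genes. Among treated cells, *Flt3* and *Cd209a* were apart and higher in GEF-H1-/- DCs, against 7.02%, and none was apart and lower, against 6.73%. None was past 1 in either direction, against 4.06%. The median log2 value was 0.05 among controls and 0.25 among treated cells, beside -0.01 and -0.03 over all genes. These comparisons use the same 4 groups as the drug comparisons and are no separate evidence. In the difference between the drug changes, WT minus GEF-H1-/-, *Kmo* was the 1 gene past the limit, at -1.21, against 1.90% of all genes. The other differences lay between -0.39 for *Flt3* and 0.35 for *Spi1*.

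Rescaling the groups to equal FPKM totals, an alternative chosen after seeing the data, gave a median over all genes of -0.20 in the WT drug comparison and 0.19 between treated cells, beside 0 and -0.03 as deposited. Under it, 25.2% of the genes apart in the WT comparison were higher, against 54.8% as deposited, and 43.3% of the genes past the limit, against 74.1%. Between treated cells, 80.9% of the genes apart were higher in GEF-H1-/- DCs, against 51.1% as deposited, and 75.7% of the genes past the limit, against 49.2%. *Batf3* and *Dpp4* joined *Flt3*, *Cd209a* and *Kmo* as apart and lower in treated WT DCs, 5 in all. *Itgax*, *Batf3* and *Kmo* joined *Flt3* and *Cd209a* as apart and higher in treated GEF-H1-/- DCs. *Kmo* was lower in treated cells of both genotypes, with intervals apart, under every scaling. The gene lists that follow are given as deposited only. Equal totals move log2 values by up to -0.24 in the WT drug comparison and 0.25 between treated cells. Calls of listed genes nearer than this to a limit, or with intervals narrowly apart, may depend on the scaling and were not rechecked.

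Of 17 other transcription factors of DC development, all passed the filter, with a median drug change of 0.17 for WT and 0.01 for GEF-H1-/- cells. In treated WT DCs 6 were apart and higher (*Irf4*, *Irf8*, *Nfil3*, *Zeb2*, *Runx3* and *Stat3*), against 9.19% of all genes. There were 4 apart and lower (*Ikzf1*, *Klf4*, *Bcl11a* and *Cbfa2t3*), against 7.58%. In GEF-H1-/- DCs *Irf8* was apart and higher, against 2.75% of all genes, and *Klf4* apart and lower, against 0.956%. *Irf8*, a factor of cDC1 and plasmacytoid DCs, was at 18.8 FPKM in WT controls and 96.8 after treatment, a log2 change of 2.31, and at 24.8 and 103 FPKM in GEF-H1-/- cells, a change of 2.01. *Runx3* was at 20.4 and 44.7 FPKM in WT (1.10), and at 19.3 and 24.4 FPKM in GEF-H1-/- DCs (0.33). *Klf4*, a factor of monocytes and some cDC2, was at 27.5 and 10.2 FPKM in WT (-1.35) and 22.1 and 12.7 FPKM in GEF-H1-/- DCs (-0.76).

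**Figure D3:**
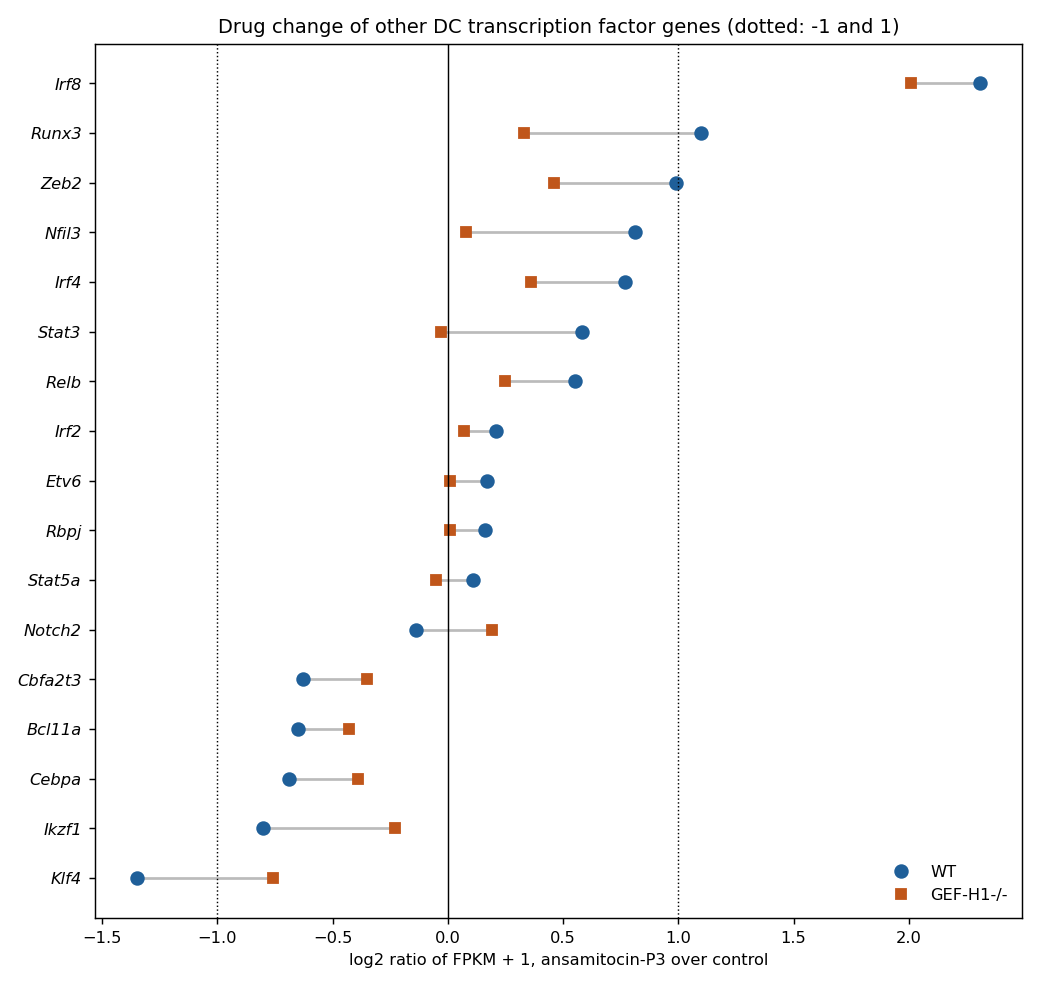
Log2 ratio of FPKM + 1, ansamitocin-P3 over control, for 17 other DC transcription factor genes in WT (circles) and GEF-H1-/- (squares) DCs, with dotted lines at -1 and 1. As deposited, *Irf8* is over 1 in both genotypes, and *Runx3* and *Klf4* pass a limit in WT only.

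Genes that work with the identity genes, or are related to them, were past the limit in neither drug comparison, with 21 of 27 passing the filter. The 3 most abundant were *Itgb2*, the partner chain of CD11c, at 259, 332, 301 and 341 FPKM, *Itgam* at 169, 211, 205 and 231 FPKM, and *Id1* at 44.7, 42.5, 46.5 and 47.0 FPKM. *Id3* was at 41.4, 31.1, 20.4 and 13.7 FPKM and *Spib*, a relative of PU.1, at 12.6, 7.64, 7.20 and 3.44 FPKM, both apart and lower in GEF-H1-/- cells in control and treated pairs. Of 7 growth factor receptors, none passed the limit, and 2 were apart and higher in treated WT cells, against 9.19% of all genes. *Csf2rb*, the shared chain of the GM-CSF receptor, was at 218 FPKM in WT controls and 337 after treatment, against 203 and 207 FPKM in GEF-H1-/- DCs. *Il4ra*, of the IL-4 receptor, was at 40.6 and 68.4 FPKM in WT and 43.6 and 57.8 FPKM in GEF-H1-/- DCs. In the same group, *Csf2ra* was at 94.5 and 136 FPKM in WT and 122 and 148 in GEF-H1-/- DCs, and *Il2rg* at 106 and 130 and at 103 and 109 FPKM, with overlap.

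Around *Kmo*, 6 of 10 genes of the kynurenine pathway passed the filter and none passed the limit in a drug comparison. *Kynu*, the kynureninase, was at 41.4 and 25.9 FPKM in control and treated WT DCs and 31.2 and 22.8 FPKM in GEF-H1-/- DCs. *Haao* was at 20.0 and 17.3 FPKM in WT and 15.5 and 13.9 FPKM in GEF-H1-/- DCs, and the amino acid transporter *Slc7a5* at 76.0 and 68.0 and at 66.5 and 68.5 FPKM. *Tdo2* was listed at 0 in every group. *Kyat3*, a kynurenine aminotransferase, at 3.05, 1.54, 3.48 and 2.29 FPKM, was the 1 gene of the list apart and lower in treated WT cells, against 7.58% of all genes. None was apart in GEF-H1-/- cells.

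The label was checked against markers of the cDC branches. Of 10 cDC1 markers, 5 passed the filter, and *Xcr1*, *Clec9a*, *Cadm1*, *Btla* and *Tlr3*, the defining ones among them, were under 1 FPKM in every group. These low levels do not bear out a cDC1 reading of the identity genes in these cultures, and the name of the list is kept as a label only. *Cd24a* was at 481 FPKM in WT controls and 200 after treatment (-1.26) and at 505 and 420 FPKM in GEF-H1-/- DCs (-0.27). *Wdfy4*, needed for cross-presentation by cDC1, was at 54.8 and 23.2 FPKM in WT (-1.21) and 39.3 and 38.7 FPKM in GEF-H1-/- DCs (-0.02). *Naaa* was also apart and lower in treated WT cells, at 271, 142, 246 and 179 FPKM. This made 3 of the list apart and lower in WT, against 7.58% of all genes, and 2 under -1, against 1.28%. *Ly75*, the DEC-205 gene, was apart and higher in treated cells of both genotypes, at 15.0, 23.2, 8.39 and 14.3 FPKM. It was the 1 cDC1 marker to be so, against 9.19% of all genes in WT and 2.75% in GEF-H1-/- cells. Of 9 cDC2 markers, 8 passed, and *Pdcd1lg2*, the PD-L2 gene, was the 1 past the limit in a drug comparison, against 3.66% of all genes over it in WT. It was at 59.1 and 133 FPKM in WT (1.16) and 59.5 and 83.9 FPKM in GEF-H1-/- DCs (0.49). *Sirpa*, at 134, 241, 142 and 192 FPKM, was also apart and higher in treated WT cells, which made 2 of the list, against 9.19% of all genes. *Clec12a*, at 99.5, 58.5, 98.3 and 90.1 FPKM, and *Ltb*, at 19.8, 11.3, 33.7 and 26.7 FPKM, were apart and lower, against 7.58%. Between treated cells *Ltb* was past the limit, 1.18 higher in GEF-H1-/- DCs, as was the cDC1 marker *Cd24a*, 1.07 higher, against 4.06% of all genes past it in either direction. Of the cDC1 markers, *Cd24a* and *Wdfy4* (0.72) were apart and higher there and *Ly75* (-0.66) apart and lower. Of 23 cDC core genes, 21 passed, with a median drug change of -0.12 in WT. In treated WT cells 4 were apart and higher, against 9.19% of all genes. The 3 apart and lower were *Jaml*, *Adgrg5* and *Bcl11a*, against 7.58%. Of the 21 genes, 3 were over the limit in WT, against 3.66%, and none was under it, against 1.28%. *Ccr7*, the receptor that guides DCs to lymph nodes, was at 258 and 602 FPKM in WT (1.22) and 234 and 405 FPKM in GEF-H1-/- DCs (0.79), apart in both. *Gpr132* was at 37.3 and 83.4 FPKM in WT (1.14) and 35.6 and 48.8 FPKM in GEF-H1-/- DCs (0.44), and *Runx3* was the third. Of 15 mature DC genes, 3 were apart and higher in treated WT cells (*Ccr7*, *Ly75* and *Tnfrsf9*), against 9.19% of all genes. In GEF-H1-/- cells 3 were apart and higher (*Ccr7*, *Ly75* and *Il12b*), against 2.75%. None was apart and lower in either genotype, against 7.58 and 0.956%. *Ccr7* alone was past the limit in a drug comparison, against 3.66% of all genes over it in WT. *Cd83* was past the limit between treated cells, at -1.02 for GEF-H1-/- against WT, where 4.06% of all genes passed it. The 5 MHC class II genes did not pass it, with *Cd74* at 3680, 4930, 3070 and 3330 FPKM, *H2-Aa* at 925, 987, 762 and 753 FPKM and *H2-Ab1* at 633, 623, 506 and 517 FPKM in turn. *Ciita*, of the same list, was at 23.4, 11.3, 15.4 and 9.56 FPKM. Its log2 change was -0.98 for WT, with intervals apart, and -0.64 for GEF-H1-/- cells, with overlap.

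Markers of other blood cells differed between the genotypes beside the identity genes. FPKM summed over 12 macrophage markers was 798 in WT controls, 696 in treated WT cells, 1280 in GEF-H1-/- controls and 1180 after their treatment. Most of this sum was *Lyz2*, a lysozyme gene, at 557, 511, 984 and 909 FPKM. The median log2 value of the list between controls was 0.17, with *Lyz2* and *Mrc1* among the genes apart and higher in GEF-H1-/- cells and *Siglec1* apart and lower, at 1.63, 0.635, 0.534 and 0.468 FPKM. *Mertk* was at 5.46, 0.778, 4.56 and 2.53 FPKM, a log2 change on treatment of -1.86 for WT and -0.65 for GEF-H1-/- cells. The 8 neutrophil markers summed to 32400, 38300, 21900 and 22300 FPKM, with *S100a8* at 19400, 23100, 10900 and 11200 FPKM, *S100a9* at 10700, 12400, 10000 and 10100 FPKM and *Ngp* at 1710, 2140, 702 and 665 FPKM as the 3 most abundant. The list did not move one way. Among controls 4 of its genes were apart and lower in GEF-H1-/- cells (*S100a8*, *Ngp*, *Ltf* and *Camp*), against 1.88% of all genes. Another 2 were apart and higher, against 2.86%, *Mpo* and *Retnlg*, the latter at 18.6, 24.4, 36.2 and 37.5 FPKM. The *S100a8* values lay above their own intervals, 9360 to 16500 FPKM in WT controls and 5360 to 8910 in GEF-H1-/- controls. Its call does not hold where both values must lie inside their intervals. The 6 mast cell and basophil markers summed to 196, 200, 380 and 364 FPKM, led by *Prss34* at 82.0, 83.8, 171 and 163 FPKM, *Mcpt8* at 63.5, 71.3, 97.0 and 92.6 FPKM and *Cpa3* at 31.1, 29.7, 54.9 and 53.0 FPKM. Among controls 5 of the 6 were apart and higher in GEF-H1-/- cells, against 2.86% of all genes. *Fcer1a*, at 6.25, 4.62, 33.5 and 32.3 FPKM, differed most, with a log2 value of 2.25. The 5 progenitor markers summed to 52.3, 41.1, 84.8 and 78.4 FPKM, among them *Mpo* at 26.4, 21.7, 63.1 and 59.0 FPKM, *Cd34* at 10.7, 9.92, 6.19 and 7.70 FPKM and *Myb* at 9.10, 5.22, 9.20 and 6.99 FPKM. The higher sum in GEF-H1-/- cells came through *Mpo*, which is also in the neutrophil list. The median log2 value of the progenitor list between controls was 0.01. The 9 plasmacytoid DC markers summed to 177, 163, 154 and 141 FPKM, with *Bst2* at 115, 109, 92.5 and 86.7 FPKM, *Irf7* at 32.9, 33.0, 43.1 and 39.9 FPKM and *Spib* at 12.6, 7.64, 7.20 and 3.44 FPKM. Among controls 3 that passed the filter were apart and lower in GEF-H1-/- cells, against 1.88% of all genes, and none apart and higher, against 2.86%. These were *Spib*, *Pacsin1* (log2 value -1.25) and *Ly6d* (-1.06). The 6 B cell markers summed to 16.8, 10.4, 9.45 and 6.64 FPKM, with *Cd79b* at 9.76, 5.48, 5.05 and 3.40 FPKM and *Cd79a* at 3.89, 2.51, 2.48 and 1.65 FPKM. The 6 T and NK cell markers summed to 19.6, 21.6, 13.5 and 13.7 FPKM, with *Cd8a* at 6.82, 8.23, 4.41 and 5.22 FPKM, *Cd3g* at 4.93, 5.33, 3.47 and 2.93 FPKM and *Cd3d* at 3.98, 4.34, 2.52 and 3.04 FPKM. The part of these markers' cells in the values of the identity genes was not tested.

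**Figure D4:**
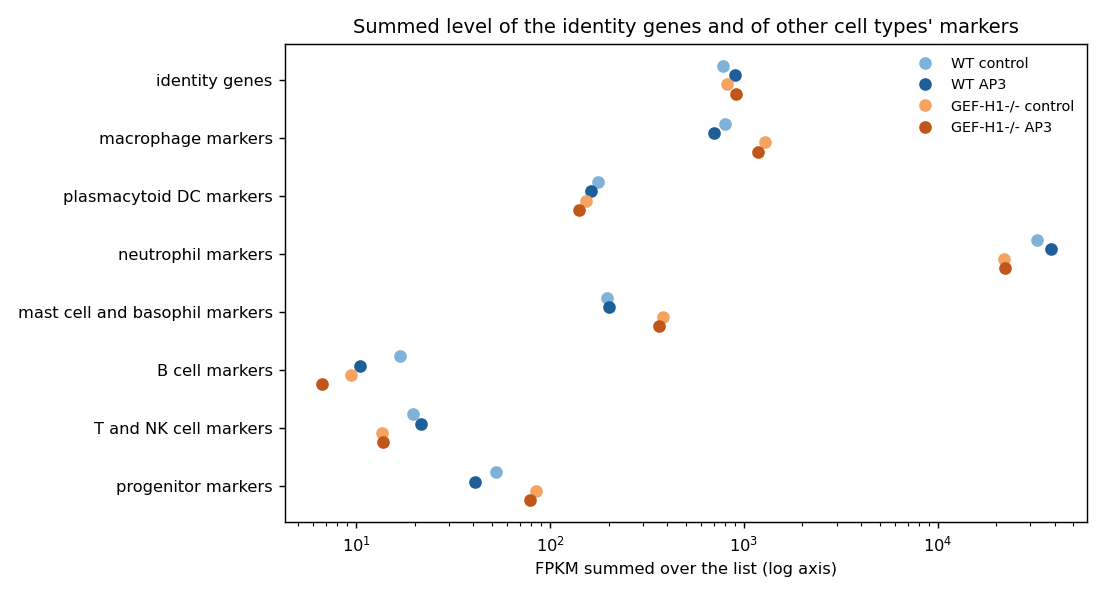
FPKM summed over the identity genes and over marker lists of other blood cells (log axis) in the 4 groups, 1 pooled value each. The identity genes sum to 780 to 909 FPKM in the 4 groups, mostly through *Spi1* and *Id2*, at 279 and 222 FPKM in WT controls. *Zbtb46*, at 14.8 FPKM there, adds little, so the sum is no measure of cDC content. The sums of macrophage and of mast cell and basophil markers are higher in both GEF-H1-/- groups, the macrophage sum mostly through *Lyz2*. That of neutrophil markers is lower in both, mostly through *S100a8*. The *S100a8* values lie above their own intervals in the 4 groups.

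The genes whose pattern over the 4 groups lay nearest to *Zbtb46*, by the distance between log2 (FPKM + 1) values centred on their mean, were *Tmem131*, *BC028528* and *Snora23*. *Tmem131* was at 33.9, 49.3, 20.8 and 28.2 FPKM, a distance of 0.081, and *BC028528* at 29.0, 43.6, 19.9 and 27.4 FPKM, a distance of 0.094. *Snora23* was at 0.722, 1.45, 0 and 0.544 FPKM, a distance of 0.109, but it passed the filter only through treated WT cells and the added 1 FPKM compresses its pattern. The distance rests on 4 values per gene.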

How the data were processed

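RNA was sequenced in 8 libraries, 2 for each of 4 groups. Per the labels and methods, stranded libraries of polyadenylated RNA were sequenced as paired ends. The authors computed FPKM with Cuffdiff (version 1.05 and mm10 in the submitters' processing notes) and deposited 1 pooled FPKM per gene and group with a 95% interval and a status. The aligner and annotation of this table are not given in the sources used here. The columns of WT cells name no genotype and were assigned by elimination. Genes with a status other than OK (107) were left out, and of the rest the 11397 that reached 1 FPKM in some group were kept. Changes are log2 ratios of FPKM + 1, with a limit of 1. No test was run, since each group has 1 value. Depth per library is unknown from FPKM. Starts in the table count from 0 and were raised by 1. 0 columns of per-sample values went unused.

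The identity genes and the 16 other lists were chosen with earlier results of these data known. Named genes were every identity gene, *Arhgef2*, in each other list those past the limit in a drug comparison or else the 3 with the highest FPKM, and the 3 genes nearest to *Zbtb46* in pattern. Of these, 1 gene is not reported here. Further genes in the text were picked with their values in view. The settings varied were the pseudocount (0.1 or 5 FPKM), the filter (none, or 5 FPKM), the limit (0.5), intervals counted only where both values lay inside their own, rescaling to the median ratio, and rescaling to equal totals. The scripts were tested on simulated data in which every gene was raised above its measured level. That test checks the code and does not cover low genes such as *Flt3* and *Cd209a*. Python 3.11.15, pandas 2.3.3, NumPy 2.4.6 and Matplotlib 3.10.9 were used.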

Additional observations from a re-analysis of the deposited data

How the results depend on the processing

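No paired analysis was possible because each group has 1 pooled value, and for the same reason no library could be left out. As reported, 1, 0, 0 and 0 identity genes were past the limit in treated against control WT, treated against control GEF-H1-/-, GEF-H1-/- against WT controls, and GEF-H1-/- against WT treated cells, and 3, 1, 2 and 2 had intervals apart. With 0.1 FPKM added, the count past the limit was 2 in the WT drug comparison and 1 between treated cells, in both through *Cd209a*. A limit of 0.5 gave 6, 1, 3 and 4. A filter of 5 FPKM, which removes *Flt3* and *Cd209a*, left 1 gene apart in the WT drug comparison, 1 between controls and 0 between treated cells. Equal totals gave 5 genes apart in the WT drug comparison and 5 between treated cells, where 1 gene was past the limit. The sign of 2 of 50 values changed with equal totals: *Id2* in treated WT DCs (-0.02) and the difference between genotypes for *Zbtb46* (-0.14). *Bcl6* in treated WT DCs went to 0.0 under the same rescaling. No filter, the median ratio and the stricter interval rule moved no count by more than 1.5 times.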
